A study of Homo sapiens with 2 samples.

Results

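Expression of 4 genes that report on signalling from the epidermal growth factor receptor (EGFR) through the kinase ERK was examined in the established cell line HT29, which comes from a human colon cancer. They were *ERRFI1*, *FOSL1*, *ETV4* and *SPRY2*, which are 4 of 14812 genes that had a named probe set, a group of short probes for 1 transcript. These genes were picked by name with their differences in these data already known, because *REG4* has been proposed to act through EGFR, so the differences are given as a description. Cells had been transfected with a control siRNA (siControl) or with an siRNA against *REG4* (siREG4), which encodes a secreted lectin, and there was 1 array of total RNA per group. For the siREG4 array, the treatment label gives GATA6 as target, but the title and source name give REG4, and the title was followed. Neither the time after transfection nor which of the study's *REG4* siRNAs was used on the array is given in the sources used here, and 1 transfection of 1 cell line limits what the groups can stand for.

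EGFR is a receptor tyrosine kinase of epithelial cells that, once bound by a ligand of the EGF family, activates RAS and through it the kinases RAF, MEK and ERK. ERK enters the nucleus and phosphorylates transcription factors, and the genes that then rise include both effectors of growth and inhibitors that turn the pathway down. Among the inhibitors, ERRFI1 (also called MIG6) binds the EGFR kinase domain and blocks it, and SPRY2, a Sprouty protein, acts between the receptor and ERK. FOSL1 (FRA1) is an AP-1 transcription factor subunit that ERK both induces and stabilizes, and ETV4 (PEA3) is an ETS family transcription factor whose gene is induced downstream of ERK. HT29 cells carry an activated form of BRAF, a RAF kinase that lies below the receptor.

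The deposited values were on a log scale, taken here as log2, and were centred per probe set. Both arrays are thus mirror images of each other in every probe set, and a value says how far an array lay from the midpoint of the pair, not how strongly a gene was expressed. Differences are siREG4 minus siControl. With 1 array per group no difference has a replicate check, and no error or p-value could be computed. No probe set had *REG4* as its single symbol (0 probe sets), so the knockdown itself was not analysed here. Without levels, HT29 cells could not be checked against markers of colon epithelium. The differences of 9 such markers ran from -0.26 (*CDX2*) to 0.54 (*KRT20*). Those of 5 fibroblast and endothelial markers ran from -0.40 (*ENG*) to 0.03, and those of 5 immune markers from -0.75 (*CD68*) to 0.13. The part of other cell types in the differences was not tested. The 84 keratin-associated protein genes (*KRTAP*), hair genes taken as silent in colon cells, served as a gauge of dim probe sets and ranged from -0.22 to 0.30 with an SD of 0.09 across genes. Of the 14812 named genes, 710 lay above this range and 1362 below it. Most genes thus lay inside it, and a place inside it is not particular to a gene or list.

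The 4 genes fell into 2 that were higher and 2 that were lower in the siREG4 array. The feedback inhibitor of EGFR and the AP-1 subunit were the higher pair, and the ETS factor and the Sprouty protein were the lower pair. The study's methods set a threshold of 1.4-fold (0.49 on the log2 scale) for decreases only, and here the same size was also applied to increases. By it, 2 were past it upwards, 1 was past it downwards and 1 lay inside it. Over all genes, 1.51% (224 genes) were higher and 1.67% (248 genes) were lower past this threshold. The members were chosen on this very contrast, so nothing is read from their count.

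*ERRFI1* had a value of -0.40 in the siControl array and 0.40 in the siREG4 array. The difference of 0.79 corresponds to 1.73-fold more signal after *REG4* siRNA and was the largest in size of the 4. Of the other protein-coding genes, 47 were higher and 11862 were lower. The probe set was annotated to transcript NM_018948.

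*FOSL1* had a value of -0.31 in the siControl array and 0.31 in the siREG4 array. It was thus 1.53-fold higher (0.62) in the siREG4 array, 0.18 below *ERRFI1*, and 103 protein-coding genes stood above it. Both genes lay above the highest *KRTAP* gene, but they were picked with their differences known, so nothing is read from this.

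*ETV4* was the reverse of these, with 0.29 in the siControl array and -0.29 in the siREG4 array. It was 1.49-fold lower (-0.58), and 128 protein-coding genes lay below it. On the log2 scale it was 1.37 away from *ERRFI1*, the other end of the group.

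*SPRY2* went the same way as *ETV4* but by less, with 0.12 in the siControl array and -0.12 in the siREG4 array. It was 1.19-fold lower (-0.25), inside the threshold, and 14.4% of all genes had a difference of larger size. The value was only slightly below the lowest *KRTAP* gene (-0.22), so that *SPRY2* stood near the edge of the range of dim probe sets.

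**Figure D1:**
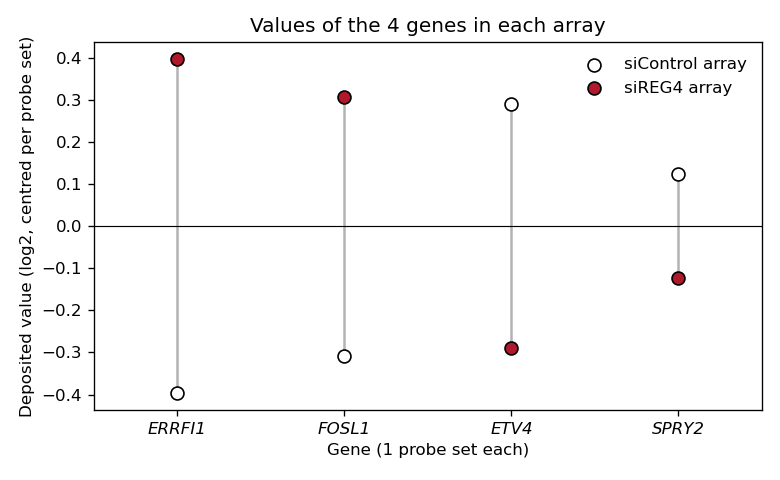
Deposited values (vertical axis, log2, centred per probe set) of the 4 genes in the siControl array (open circles) and the siREG4 array (filled circles), 1 array per group. *ERRFI1* and *FOSL1* have the filled circle on top, at 0.40 and 0.31, and *ETV4* and *SPRY2* have it below, at -0.29 and -0.12. The mirror symmetry about 0 comes from the centring.

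**Figure D2:**
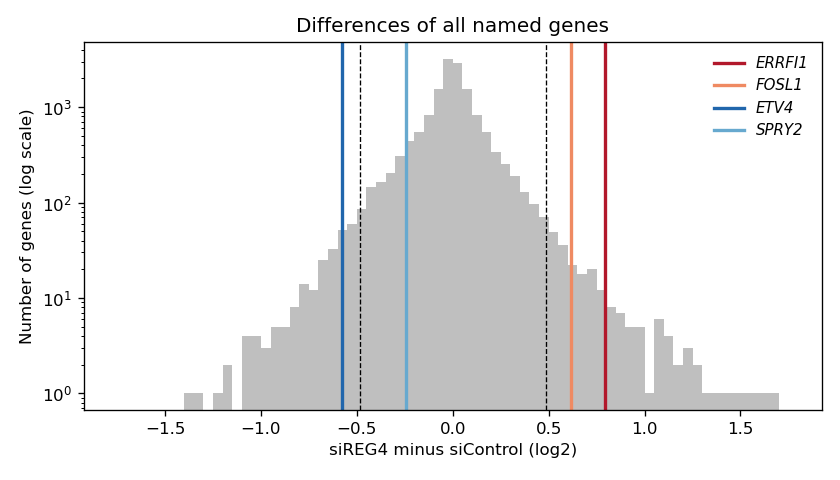
Number of genes (vertical axis, log scale) by difference between the arrays (horizontal axis, siREG4 minus siControl, log2) for the 14812 named genes, with coloured lines at the 4 genes and dashed lines at 1.4-fold. *ERRFI1* (0.79), *FOSL1* (0.62) and *ETV4* (-0.58) lie outside the dashed lines, and *SPRY2* (-0.25) lies inside them.

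Since each gene carries 1 difference, closeness of that difference over the 2 arrays is the only measure of a like pattern. The protein-coding genes nearest to *ERRFI1* were *SLFN5* (0.80) and *MFGE8* (0.78). *FOSL1* lay beside *RASA3*, a GTPase-activating protein of RAS (0.62), and *SIPA1L2* (0.61), and *ETV4* beside *KANK1* and *GH2* (each at -0.58). Next to *SPRY2* came *DDX46* and *AIMP1*, each at -0.25.

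The nearest measured protein-coding genes on the chromosome were compared as well, in the order of a RefSeq gene table. *ERRFI1*, on chromosome 1, had *PARK7* (-0.21) and *RERE* (-0.02) at its sides. *FOSL1*, on chromosome 11, had *CCDC85B* (0.10) and *C11orf68* (0.08), and *ETV4*, on chromosome 17, had *DHX8* (0.24) and *MEOX1* (-0.07). None of these 6 genes passed 1.4-fold, and both neighbours of *ERRFI1* and 1 neighbour of *ETV4* had the opposite sign to it. *SPRY2*, on chromosome 13, had *NDFIP2* (-0.23) before it and *GPC5* (-0.05) after it, both with its sign. The next measured genes outward were *UTS2* (-0.03) and *CA6* (0.05) for *ERRFI1*, *FIBP* (-0.35) and *DRAP1* (0.07) for *FOSL1*, *TMEM106A* (-0.30) and *SOST* (0.26) for *ETV4*, and *RBM26* (-0.32) and *GPC6* (0.07) for *SPRY2*.

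Promoter sequences from RefSeq (GRCh38.p14, 250 bases before to 50 after a transcription start) matched 2 of the 4 genes, *ERRFI1* with 1 start and *SPRY2* with 3. They are shown because these genes are the higher and the lower of the pathway's inhibitors among the 4. Capitals mark CpG dinucleotides. The *ERRFI1* promoter lies at chr1:8026260-8026559 on the minus strand, and the *SPRY2* promoter at the most upstream of its starts lies at chr13:80341077-80341376 on the minus strand.
ERRFI1: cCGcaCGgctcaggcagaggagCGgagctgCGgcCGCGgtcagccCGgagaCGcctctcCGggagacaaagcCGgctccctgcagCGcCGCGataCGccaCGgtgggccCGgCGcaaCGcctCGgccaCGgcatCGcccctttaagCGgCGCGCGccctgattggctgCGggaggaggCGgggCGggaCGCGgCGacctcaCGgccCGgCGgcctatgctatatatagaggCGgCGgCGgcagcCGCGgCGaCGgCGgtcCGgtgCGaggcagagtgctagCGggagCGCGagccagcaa
SPRY2: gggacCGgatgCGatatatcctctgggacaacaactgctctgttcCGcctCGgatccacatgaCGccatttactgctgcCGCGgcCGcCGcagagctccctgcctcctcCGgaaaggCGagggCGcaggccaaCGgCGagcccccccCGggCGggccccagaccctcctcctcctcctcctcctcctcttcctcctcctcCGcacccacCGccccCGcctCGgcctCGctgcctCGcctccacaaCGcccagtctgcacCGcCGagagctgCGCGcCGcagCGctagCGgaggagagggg

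The *ERRFI1* promoter held 47 CpG dinucleotides, more than 97.6% of the 35116 promoters in the table (median 14), and was 74.7% G or C. The *SPRY2* promoter shown held 30, and those at its other starts 15 and 6. Both strands were searched for AP-1 (TGANTCA, in 7.71% of all promoters), the CRE core (TGACG, in 24.6%), an ETS site (CCGGAAG, in 10.3%), a GATA site (AGATAA, in 10.3%) and the CArG box of SRF (in 1.29%). The only match in the 4 promoters was a CRE core in the printed *SPRY2* promoter, 190 to 186 bases before the start, and it overlapped no other motif. A match of letters is a description and not a binding site.

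To place the 4 genes in their pathway, 16 lists of EGFR and ERK pathway genes were described from receptor to target. They held 175 genes besides the 4, of which 120 were measured. Of these, 4 were higher past 1.4-fold (3.33%, against 1.51% of all genes) and 0 were lower (against 1.67%). Over the 11910 protein-coding genes alone, the shares were 1.68% higher and 2.04% lower. Their median was 0.03, against 0.0 over all named genes, and 72 lay above and 47 below 0, against 7104 above and 7215 below over all named genes. The 4 higher genes were *EPHA2*, *DUSP1*, *RASA3* and *NCK2*.

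At the receptors, all 3 measured genes lay above 0 without passing 1.4-fold. *EGFR* itself was at 0.37, above the range of the *KRTAP* genes, *ERBB3* at 0.23 and *ERBB4* at 0.03. The measured ligands lay close to 0: the 9 genes, with a median of 0.01, ran from *BTC* (betacellulin, -0.11) and *NRG4* (-0.04) to *EGF* (0.11) and *HBEGF* (0.14). The ligand genes *TGFA* and *AREG* and the receptor gene *ERBB2* had no probe set with a single symbol, so nothing is known of them here. The 6 genes of ligand shedding, which release ligands from the cell surface, were also within a narrow range, with *ADAM10* at -0.06, *ADAM9* at -0.03, *RHBDF2* at -0.02, *ADAM12* at 0.03, *ADAM17* at 0.07 and *RHBDF1* at 0.13. The measured ligand and shedding genes did not leave the *KRTAP* range, which held most named genes.

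Among 11 adaptors that couple receptors to RAS (median 0.10), *NCK2* was 1.44-fold higher, with -0.26 in the siControl array and 0.26 in the siREG4 array. *SOS2*, an exchange factor of RAS, was at 0.35, and *CRKL* (-0.15) and *SHC2* (-0.06) were the lowest. The 8 measured genes of the RAS, RAF, MEK and ERK core were split evenly about 0, and none passed 1.4-fold. *MAP2K2*, which encodes MEK2, was at 0.40, the scaffold gene *KSR1* at 0.23, *MAPK3* (ERK1) at 0.11 and *KSR2* at 0.02. The lower ones were *HRAS* (-0.31), *ARAF* (-0.20), *MAP2K1* (MEK1, -0.13) and *SHOC2* (-0.02). The kinases activated by ERK had 2 measured genes, *MKNK1* (0.14) and *MKNK2* (0.09).

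Genes listed under receptor feedback, Sprouty or GTPase-activating proteins of RAS, other than *ERRFI1* and *SPRY2*, did not share 1 direction. In the list of receptor feedback, the 8 genes besides *ERRFI1* had a median of 0.06 and none passed 1.4-fold. *RNF41*, a ubiquitin ligase for ERBB3, was the highest of them (0.40), followed by *LRIG3* (0.22). The lowest were *LRIG2* (-0.12) and *LRIG1* (-0.05). The LRIG genes, which encode transmembrane proteins of a family known to restrain EGFR, thus lay on both sides of 0. Of the Sprouty genes, *SPRY3* was at -0.21, near *SPRY2*, and *SPRY4* at 0.04. Among 5 GTPase-activating proteins of RAS, which switch RAS off, *RASA3* was 1.53-fold higher (-0.31 in siControl and 0.31 in siREG4), *NF1* was at 0.22, and *RASAL2* (-0.21), *RASA2* (-0.19) and *RASAL1* (-0.09) lay below 0.

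The phosphatases that inactivate ERK and its relatives lay on the side of *ERRFI1*. All 7 measured genes were above 0 and had a median of 0.29, but only 1 gene passed 1.4-fold. *DUSP1* was 1.55-fold higher, with -0.32 in the siControl array and 0.32 in the siREG4 array. *DUSP5* was at 0.47, the mean of probe sets that disagreed (0.88 and 0.05). *DUSP4* was at 0.44, *DUSP7* at 0.29, *DUSP2* at 0.13, *DUSP6* at 0.08 and *DUSP9* at 0.04. These last 4, from *DUSP7* down, lay within the *KRTAP* range.

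*FOSL1* stood apart in value from the other FOS genes. *FOS* was at -0.13 (probe sets at -0.25 and -0.01), *FOSL2* at -0.10 and *FOSB* at 0.01. JUN proteins pair with FOS proteins in AP-1, and here *JUNB* was at 0.43, *JUN* at 0.32 and *JUND* at 0.06. Of the 10 measured AP-1 genes besides *FOSL1*, none passed 1.4-fold in either direction (0 genes), and the median was 0.02. The listed genes known as AP-1 or FOSL1 targets stayed near 0, with a median of 0.03 over 8 genes. *CXCL8* (0.23) and *AXL* (0.16) were the highest, followed by *HMGA2* (0.05), *MMP10* (0.04), *MMP1* (0.03) and *HMGA1* (-0.0025), and *IL11* (-0.11) and *MMP13* (-0.09) were the lowest. All 8 lay within the *KRTAP* range, as most named genes did.

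*ETV4* was likewise lower than its nearest relatives. *ETV1* and *ETV5*, the other members of the PEA3 group, were at -0.18 and -0.08, inside the *KRTAP* range. *ETS2* was at -0.27 and *ETS1* at 0.02. Of 17 other ETS factors none passed 1.4-fold. The lowest were *ELF1* (-0.41) and *EHF* (-0.40), an epithelial ETS factor, the highest were *ETV6* (0.19) and *ETV3* (0.16), and the median was -0.02.

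Transcripts often read as the output of ERK made up a list of 10 genes, of which 9 were measured. The 7 besides *ETV4* and *SPRY2* had a median of 0.04, with 5 above and 2 below 0. Of these 7, 1 was higher past 1.4-fold and 0 were lower, and the lowest was at -0.08. *EPHA2*, an ephrin receptor, had a value of -0.36 in the siControl array and 0.36 in the siREG4 array and was 1.65-fold higher. *ETV4*, which was 1.49-fold lower, had been picked with its difference known. The highest after *EPHA2* was *DUSP4*. *DUSP6* (0.08), *SPRY4* (0.04), *CCND1*, which encodes cyclin D1 (0.01), *EPHA4* (-0.01) and *ETV5* (-0.08) lay within the *KRTAP* range. Among 17 immediate early genes, which are induced without new protein synthesis, none passed 1.4-fold. *MCL1* (0.47) and *IER2* (0.34) were the highest and *MYC* (-0.19) and *KLF2* (-0.10) the lowest, with a median of 0.02.

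*ERRFI1* also responds to inputs other than ERK, and 2 lists of such inputs were described for that reason. Their genes are not in the totals above unless they are also in an EGFR or ERK list, as *DUSP1*, *SGK1*, *CCN2* and *AXL* are. Besides *ERRFI1*, the glucocorticoid response list had 8 measured genes with a median of 0.02, of which 1 passed 1.4-fold, *DUSP1*, which is also an ERK phosphatase. *MT2A*, a metallothionein, was at 0.38, and *FKBP5* (-0.14) and *TFCP2L1* (-0.08) were the lowest. Of 10 measured target and effector genes of YAP and TEAD none passed 1.4-fold. They ran from *CRIM1* (-0.31) and *ANKRD1* (-0.02) to *AXL* (0.16) and *AJUBA* (0.18), with a median of 0.02.

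**Figure D3:**
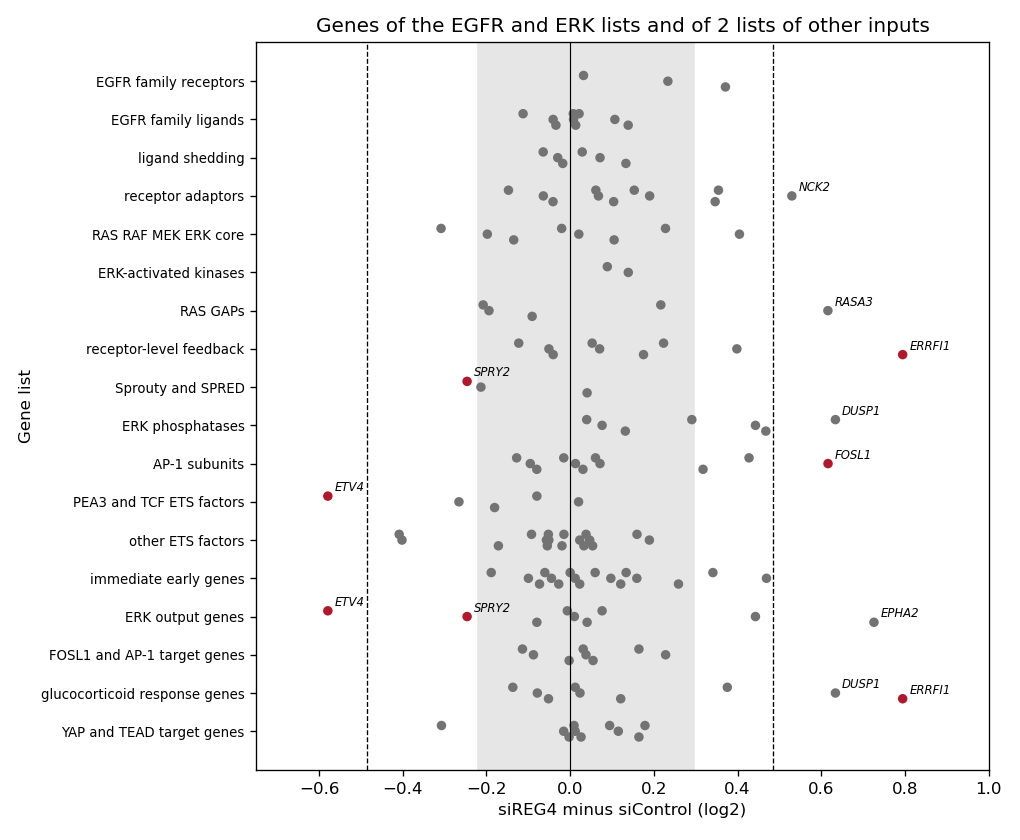
Difference between the arrays (horizontal axis, siREG4 minus siControl, log2) of each measured gene in 16 EGFR and ERK lists and 2 lists of other inputs (vertical axis), with *ERRFI1*, *FOSL1*, *ETV4* and *SPRY2* in red and the range of the *KRTAP* genes, from -0.22 to 0.30, in light grey. Dashed lines mark 1.4-fold. Besides the red points, *EPHA2*, *DUSP1*, *RASA3* and *NCK2* lie beyond a dashed line, all to the right, and a gene that is in several lists appears in each.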

How the data were processed

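Total RNA of HT29 cells was prepared with the WT PLUS reagents for Affymetrix Human Gene 2.0 ST arrays, and the authors evaluated the arrays in GeneSpring. The authors deposited 1 table of log values, taken here as log2, for 44629 probe sets, centred per probe set (rows sum to 0 within 1e-06, column medians 0). For the log base, background correction, summarization, normalization and filtering, the sources used here give no details. By a platform annotation, 15835 probe sets had a single gene symbol, are called named here and were kept. The other 28794 had no symbol or several, which were not counted apart, and were left out. Probe sets of a gene were averaged, and each of the 4 genes had 1. There was 1 array per group, which limits precision and allows no test. Counts used 1.4-fold, which the study's methods set for decreases and which was applied here to increases as well. The members and gene lists were chosen with earlier results of these data known. Named were the 4 genes, every measured gene of lists with 8 or fewer, and otherwise the 2 lowest, the 2 highest and genes past 1.4-fold, and also the 2 genes nearest to each of the 4. Other genes named, such as chromosome neighbours and further members of the larger lists, were chosen after their values were seen. Counting was tested on simulated data. Python 3.11.15, numpy 2.4.6, pandas 2.3.3 and matplotlib 3.10.9 were used.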

Additional observations from a re-analysis of the deposited data

How the results depend on the processing

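With 1 array per group, none of the values has a replicate check, and the centred values hold no signal level, so a floor on signal was not run. Quantile normalization left the sign of the 4 genes and their side of 1.4-fold as they were, at 0.76 for *ERRFI1*, 0.61 for *FOSL1*, -0.59 for *ETV4* and -0.24 for *SPRY2*. Centring each array on its median, taking the first probe set per gene or taking the probe set with the largest difference could not move them, since both medians were 0 and each gene had 1 probe set. A 2-fold threshold, which is stricter, left 13 of the 248 lower genes and 26 of the 224 higher ones, and counting all probe sets, which are more numerous, gave 491 and 466. Over the 134 measured genes of all 18 lists besides the 4, at 1.2-fold 5 were lower and 17 were higher, in place of 0 and 4. With the first probe set per gene, an alternative chosen after seeing the data, 5 were higher, the addition being *DUSP5*. No paired analysis was possible because each group has 1 array.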
